A study of Mus musculus with 14 samples.

Results

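The cell cycle genes described here are 43 protein-coding genes that act in S phase or in mitosis. They were chosen by symbol for their known roles, 21 in S phase and 22 in mitosis. The rule uses no measured value, but the choice was made with earlier results of these data known. All 43 were found among the 23284 gene symbols of each library. Their transcript levels were measured by RNA-seq in mouse forelimb buds, the paddle-shaped outgrowths that give rise to the front limbs. Wild-type and Smad4-deficient forelimb buds were collected at 30 somites (E10.0) and at 35 somites (E10.5), with 3 wild-type and 4 mutant embryos per stage and 14 libraries in all. Each library came from both forelimb buds of 1 embryo of the NMRI strain, so the replicates of a group were separate embryos. The controls, called wild type, were Smad4+/+ PrxCreT/+ and the mutants were Smad4Δ/Δc PrxCreT/+, so that the controls also carried the Cre transgene. In the mutants one Smad4 allele was deleted in every cell and the other was removed by the Prrx1-driven Cre in the limb bud mesenchyme. Ectoderm, blood and vessel cells of the mutants therefore still held 1 intact copy.

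Replication begins when origin recognition proteins, CDC6 and CDT1 load the MCM helicase onto chromatin in G1, under the control of the E2F factors and cyclin E. The helicase is then switched on by CDC45 and the GINS complex, and DNA is copied around the PCNA clamp from deoxynucleotides that ribonucleotide reductase, thymidylate synthase and thymidine kinase provide. Later, cyclin A and cyclin B with CDK1 drive entry into mitosis, the spindle checkpoint watches kinetochore attachment, and the anaphase-promoting complex ends the division. Many S phase genes are known targets of E2F at their promoters, and many mitosis genes carry CCAAT boxes and a cell cycle homology region (CHR) close to the start site. Early limb bud mesenchyme is known as a tissue of rapidly dividing cells.

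The targeted gene followed the labels. Smad4, which encodes the shared mediator of BMP and TGFβ signalling, was at 161 ± 8.43 CPM (a read count scaled to the size of its library; mean ± SD, n = 3) in the E10.0 controls and 39.8 ± 4.19 (n = 4) in the E10.0 mutants. The E10.5 values were 166 ± 2.27 and 37.0 ± 3.43 CPM. Reads assigned to genes ranged from 34066930 to 61691258 per library, and the member with the fewest reads, E2f2, still had at least 594 in every library. Mutant replicates 4 and 5 of both stages stood apart, with 1.72% to 8.05% of their reads on the ribosomal RNA precursor Rn45s, against 0.151% to 0.478% in the other 10 libraries. All 8 limb bud mesenchyme markers were detected in every library.

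In wild-type and mutant buds alike the S phase and mitosis genes were strongly expressed. All 43 passed the filter of 1 CPM in at least 3 libraries, and none did so through 1 group alone, since the lowest value of any member in any library was 18.5 CPM, of E2f2 in a mutant at E10.0. To compare genes, the mean CPM over the 14 libraries was divided by the length of the longest coding transcript. For each role the genes of highest and lowest mean CPM, before division by length, are among those given. Among regulators of S phase entry, Ccne1, which encodes cyclin E1, reached 81.0 CPM per kb and the transcription factor gene E2f2 only 4.45. In the licensing and helicase group, the 6 Mcm genes lay between 97.7 CPM per kb (Mcm6) and 154 (Mcm7), whereas Gins2, a subunit of the helicase activator, was at 10.4. In the GENCODE M1 annotation 67.3% of the exon bases of Gins2 are shared with Gse1 on the opposite strand, the largest such share of the 43. The authors used another annotation, refGene, so how many Gins2 reads were left uncounted was not determined. Pcna, the sliding clamp of the replication fork, had the highest level per length of all, at 336 CPM per kb. The large subunit of ribonucleotide reductase, Rrm1, was at 155 CPM per kb and the thymidine kinase Tk1 at 54.9. The replication checkpoint kinase Chek1 was at 30.2.

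On the mitotic side the levels per length were more even. Ccnb1, which encodes cyclin B1, was at 149 CPM per kb and Ccnb2 at 72.7. The checkpoint kinase Bub1b reached 84.0 and Cdc20, the activator of the anaphase-promoting complex, 98.5. Cenpa, the histone H3 variant of centromeres, was at 108, whereas the very long kinetochore transcripts Cenpe and Cenpf were at 25.6 and 20.3. Tpx2, a spindle assembly factor, was at 92.7 and Nusap1, a protein that bundles spindle microtubules, at 37.3. Top2a, the topoisomerase that untangles sister chromatids, was at 184 and the proliferation marker Mki67 at 54.1. Embryos of 1 group were close to each other. The coefficient of variation within groups, averaged over the 4 groups, had a median of 5.77% over the 43 genes, beside 8.75% over the 12393 genes tested. It was lowest for Mcm6, at 2.59%. The 3 highest values were those of Mki67 (17.1%), Cenpf (15.8%) and Cenpe (13.8%).

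Promoter windows were searched for letters known from cell cycle genes. RefSeq promoters (GRCm38.p6, from 250 bases before to 50 after the annotated start) were at hand for 35 of the 43 genes. Both strands were searched for the letters of an E2F site (the letters TTGGCGC, else the letters TTCGCGC, else the letters TTCCCGC), of a CHR (TTTGAA or TTTAAA) and of a CCAAT box (CCAAT), and no motif overlapped another in the windows printed here. E2F letters were in 9 of 17 S phase windows (52.9%), among them those of Cdc6, Cdt1, Mcm3, Mcm5, Mcm6 and Mcm7. They were in 3 of 18 mitosis windows (16.7%) and in 9.20% of the windows of all 27025 genes. CHR letters were in 16 of 18 mitosis windows (88.9%), 7 of 17 S phase windows (41.2%) and 30.6% of all. A CCAAT box was in 88.9% of the mitosis windows, 58.8% of the S phase windows and 41.1% of all. These are counts of letters, and binding was not measured. The windows of the 7 genes that were called in a comparison follow, since they are the members the results turn on; CHR, CCAAT and E2F letters are in capitals and the start is the base at position 251. The 3 genes called between genotypes at E10.0 come before the 4 called between stages.
Mki67 (chr7:135716330-135716629, - strand): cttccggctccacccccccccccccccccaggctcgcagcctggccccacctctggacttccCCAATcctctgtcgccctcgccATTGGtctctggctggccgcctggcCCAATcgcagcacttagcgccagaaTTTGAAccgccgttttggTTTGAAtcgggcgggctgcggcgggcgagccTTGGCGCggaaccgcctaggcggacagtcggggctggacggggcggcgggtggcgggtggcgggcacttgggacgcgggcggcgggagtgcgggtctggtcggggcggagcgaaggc
Cenpe (chr3:135212313-135212612, + strand): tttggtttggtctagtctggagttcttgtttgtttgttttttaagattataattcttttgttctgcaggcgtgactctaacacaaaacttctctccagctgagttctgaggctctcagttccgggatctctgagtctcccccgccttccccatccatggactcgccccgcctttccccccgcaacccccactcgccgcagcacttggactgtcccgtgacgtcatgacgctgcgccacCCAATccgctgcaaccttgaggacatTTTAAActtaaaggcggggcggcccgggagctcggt
Cenpf (chr1:189688037-189688336, - strand): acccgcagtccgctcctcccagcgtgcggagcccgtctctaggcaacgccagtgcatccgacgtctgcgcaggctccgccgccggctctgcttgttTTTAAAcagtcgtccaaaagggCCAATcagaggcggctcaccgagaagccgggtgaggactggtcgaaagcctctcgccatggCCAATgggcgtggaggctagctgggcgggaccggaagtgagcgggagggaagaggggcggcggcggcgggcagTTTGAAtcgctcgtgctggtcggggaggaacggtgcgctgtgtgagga
Nusap1 (chr2:119618048-119618347, + strand): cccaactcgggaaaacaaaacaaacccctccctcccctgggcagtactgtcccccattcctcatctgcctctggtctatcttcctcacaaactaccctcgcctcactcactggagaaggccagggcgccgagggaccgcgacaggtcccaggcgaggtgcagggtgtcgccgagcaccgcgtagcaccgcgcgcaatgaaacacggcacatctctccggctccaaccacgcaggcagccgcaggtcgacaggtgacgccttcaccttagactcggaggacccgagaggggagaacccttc
Ccnb2 (chr9:70421505-70421804, - strand): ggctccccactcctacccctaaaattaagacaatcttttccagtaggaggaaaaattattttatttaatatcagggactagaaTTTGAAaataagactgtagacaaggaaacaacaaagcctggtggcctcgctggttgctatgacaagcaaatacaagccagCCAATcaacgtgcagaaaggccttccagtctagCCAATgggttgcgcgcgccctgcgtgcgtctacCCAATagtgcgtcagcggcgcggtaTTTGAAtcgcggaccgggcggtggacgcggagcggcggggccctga
Ccne1 (chr7:38107441-38107740, - strand): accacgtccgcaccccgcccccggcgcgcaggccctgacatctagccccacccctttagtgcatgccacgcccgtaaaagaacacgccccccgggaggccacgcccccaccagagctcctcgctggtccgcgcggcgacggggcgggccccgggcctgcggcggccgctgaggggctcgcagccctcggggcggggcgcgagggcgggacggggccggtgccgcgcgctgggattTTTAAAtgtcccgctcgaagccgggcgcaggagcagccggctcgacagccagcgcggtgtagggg
Cdt1 (chr8:122567765-122568064, + strand): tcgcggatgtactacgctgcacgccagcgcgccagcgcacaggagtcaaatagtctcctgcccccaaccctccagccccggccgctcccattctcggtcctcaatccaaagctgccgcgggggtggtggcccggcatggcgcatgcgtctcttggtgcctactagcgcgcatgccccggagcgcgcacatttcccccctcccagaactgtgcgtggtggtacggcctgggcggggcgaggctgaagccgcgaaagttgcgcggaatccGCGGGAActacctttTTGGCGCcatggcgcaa

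CHR letters were in 5 of these 7 windows. Mki67 held E2F, CHR and CCAAT letters together, Ccnb2 had 3 CCAAT boxes spaced between positions -87 and -21 from the start, and Ccne1 held only the CHR letters TTTAAA. Cdt1, which encodes the helicase loading factor, carried E2F letters beginning at positions 19 and 34 after the start. Nusap1 held none of the letters searched, which says only that these letters are absent from that window.

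The comparison of genotypes at E10.0 asked whether cell cycle transcripts depend on SMAD4 as the limb bud is being established. Of the 43 genes, 3 were higher in Smad4Δ/Δc buds and 0 were lower, by edgeR's exact test, where a call needed a false discovery rate (FDR) no higher than 0.1 and a 1.2-fold change or more. Over all genes tested, 3.33% were called higher and 3.28% lower. The 3 were Mki67, Cenpe and Cenpf, which act in mitosis. All 21 S phase genes stayed below the threshold. The median log2 fold change was -0.02 over the 43 genes and -0.02 over all genes, and the 43 values ran from -0.31 to 0.57.

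Mki67 (chr7:142881471-142908062, mm9) encodes the Ki-67 protein that coats mitotic chromosomes. It was at 448, 514 and 350.2 CPM in the wild-type buds at E10.0 and at 573, 610.4, 635 and 775 CPM in the mutants. The groups did not overlap, and wild-type replicate 3 was the lowest. The means were 437 ± 82.3 (n = 3) and 648 ± 88.3 CPM (n = 4), a log2 fold change of 0.57 ± 0.19 (SE) with an adjusted p of 0.0101 by the exact test.

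Cenpe (chr3:134875527-134936504, mm9), the kinesin that moves chromosomes to the spindle equator, was at 160.3, 183 and 139 CPM in the controls and reached 202, 196, 231 and 261 CPM in the mutant buds. Cenpf (chr1:191464478-191511965, mm9), a large protein of the outer kinetochore, was at 192, 227 and 147 CPM in the controls and reached 244, 236, 264 and 291 CPM in the mutant buds. In both cases the lowest mutant lay above the highest wild-type bud. The log2 fold change of Cenpe was 0.47 ± 0.15 (SE, adjusted p = 0.0141, exact test) and that of Cenpf was 0.46 ± 0.19 (adjusted p = 0.0461, exact test).

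**Figure D1:**
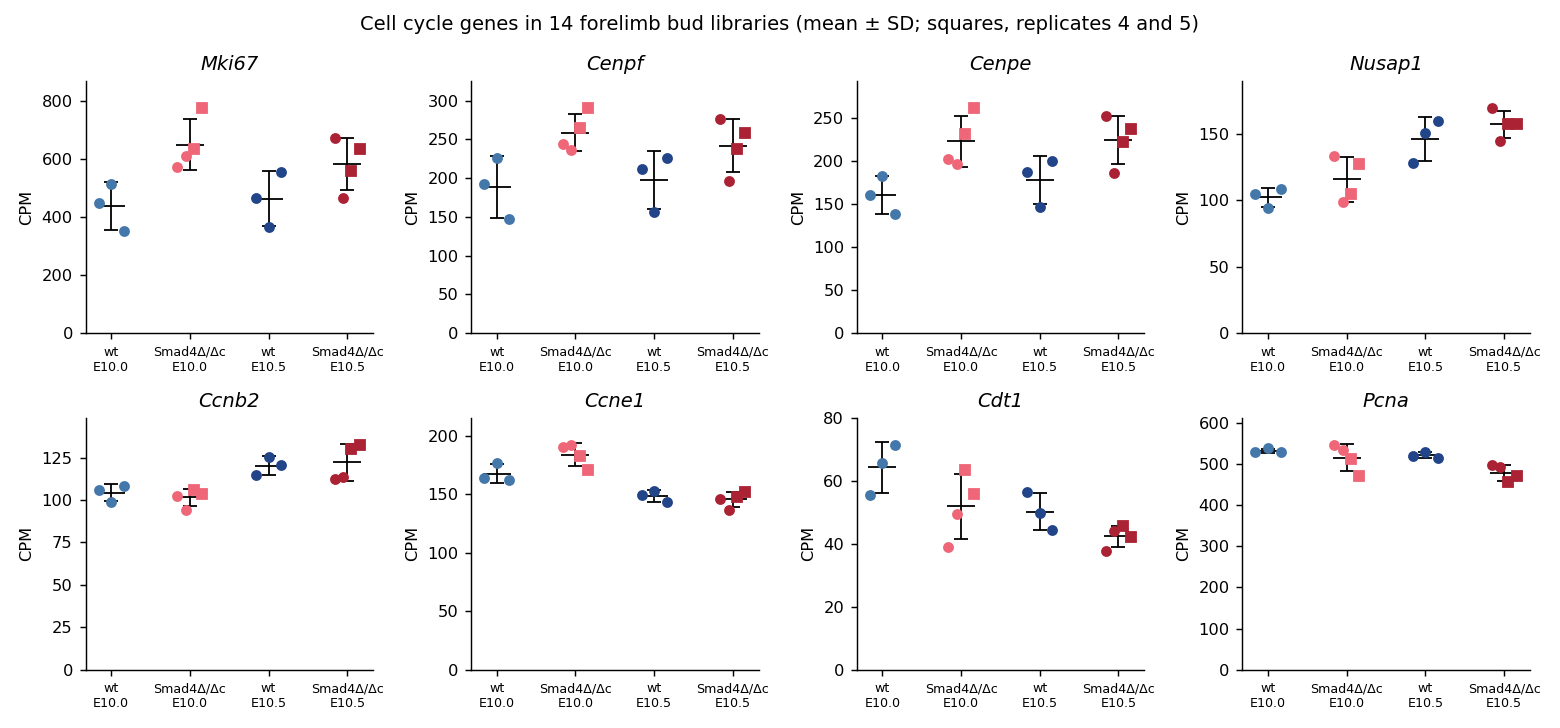
CPM (y axis, from 0) in each of the 14 libraries for the 7 genes called in a comparison and for Pcna. Each point is 1 embryo, bars are mean ± SD, and squares are mutant replicates 4 and 5. Mki67, Cenpf and Cenpe are lowest in wild-type replicate 3 at E10.0 and in wild-type replicate 2 at E10.5, and Nusap1 is higher at E10.5 in both genotypes.

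All 3 calls were lost without 1 of the wild-type libraries. Without wild-type replicate 3 of E10.0, 0 of the 43 genes were called, and the log2 fold changes of Mki67, Cenpe and Cenpf were 0.44, 0.39 and 0.32, with adjusted p of 0.223, 0.238 and 0.453 by the exact test. Cenpf also lost its call without wild-type replicate 1 (0.47, adjusted p = 0.122), without mutant replicate 5 (0.40, adjusted p = 0.165) and by the quasi-likelihood test (adjusted p = 0.121). Within the libraries of lower Rn45s, mutant replicates 1 and 3 exceeded the wild-type mean by 0.44 for Mki67, 0.31 for Cenpe and 0.35 for Cenpf on the log2 scale; replicates 4 and 5 had no wild-type counterpart. With mutant replicates 4 and 5 of both stages left out, 6 members were called: Ccne2, Cenpe and Mki67 higher, and Cdt1, Gins2 and Plk1 lower. The share of all genes called in these fits with libraries left out is not given here. Their counts are therefore not read as results about the members.

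The same 3 genes had the longest coding transcripts of the 43, at 10075 bases for Mki67, 11137 for Cenpf and 7813 for Cenpe, beside a median of 3049. Long transcripts moved with genotype beyond the cell cycle genes. Of 929 other genes with a transcript of at least 7000 bases, 164 (17.7%) were called higher and 5 (0.538%) lower in mutants at E10.0, with a median log2 fold change of 0.17, against 237 (2.17%) and 387 (3.54%) of 10938 shorter ones. Across the 11910 genes with a known length, the log2 fold change had a Spearman rho of 0.31 with length and of -0.44 with GC content; across the 43 these were 0.52 and -0.63. The points share libraries, so these are descriptions. The median deviation of the 929 long transcripts from their mean over the libraries was lowest in wild-type replicate 3 of E10.0, at -0.21 on the log2 scale, followed by wild-type replicate 2 of E10.5, at -0.19. It lay between -0.06 and 0.18 in the other 12 libraries. A quasi-likelihood fit used the GC and length trend of each library as an offset, chosen after the data were seen. With it, 0 of the 43 genes were called, beside 4.43% of all genes with a known length. Mki67 then changed by 0.32 (adjusted p = 0.139), Cenpe by 0.30 (adjusted p = 0.179) and Cenpf by 0.16 (adjusted p = 0.418), where the same fit without the offset gave 0.57, 0.47 and 0.46 with adjusted p of 0.0728, 0.0728 and 0.117. How much of the change in these genes follows transcript length or library preparation was not tested.

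**Figure D2:**
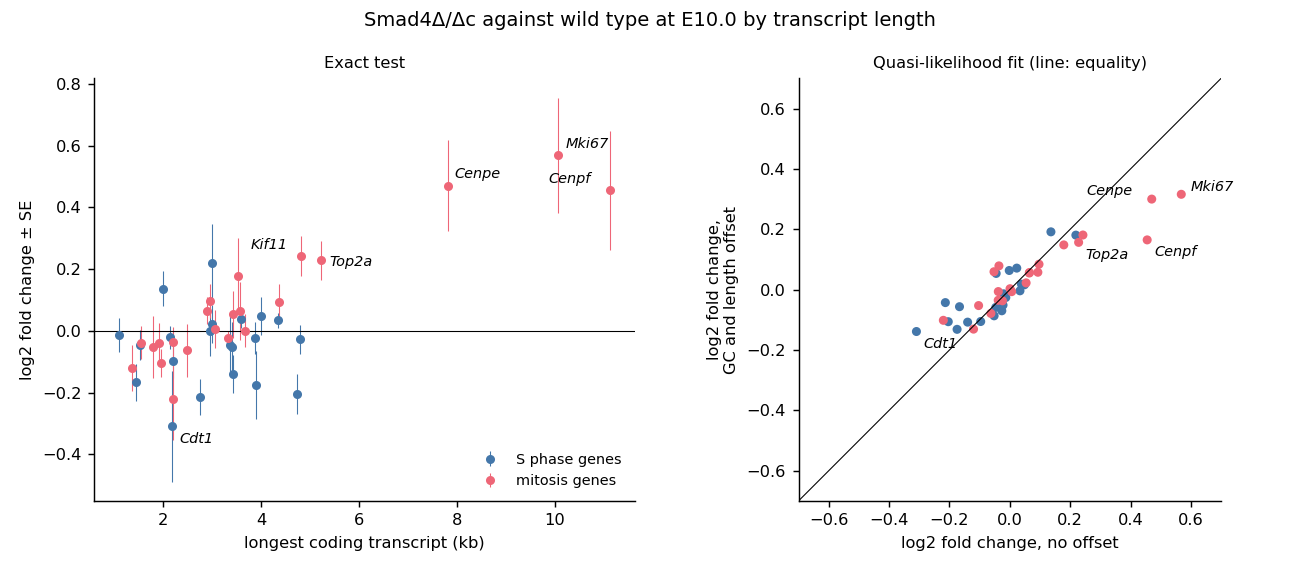
Left, log2 fold change of mutant over wild type at E10.0 (± SE) against the longest coding transcript in kb, for 21 S phase genes (blue) and 22 mitosis genes (red). Right, the log2 fold change of the same genes in quasi-likelihood fits without (x axis) and with (y axis) an offset for GC content and length. Mki67, Cenpf and Cenpe are the 3 longest and the 3 highest, and with the offset they fall to 0.32, 0.16 and 0.30.

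Lists of cell type markers also differed between genotypes at E10.0. The mesothelium and body wall list (Wt1, Upk3b, Msln and Lrrn4) had a summed level of 2.40 to 4.20 CPM in the controls and 10.2 to 23.1 CPM in the mutant buds, with 3 of its 3 tested genes called higher. Of the limb bud mesenchyme list 5 of 8 were lower, its sum falling from 1394–1610 CPM to 1114–1340 CPM. That list includes Lhx2 and Prrx2, which the paper reports as SMAD4 target genes with reduced expression in these mutants. Lower expression per cell and a lower share of mesenchyme therefore cannot be told apart. Muscle precursor markers had 2 of 5 tested genes higher (102.8–117 against 112–133 CPM) and macrophage markers 1 of 4 (2.66–5.26 against 4.46–7.06 CPM). In the ectoderm and ridge list 1 of 9 was lower (247–307 against 202–279.6 CPM). None was called of 7 endothelial genes (278–321 against 301–356 CPM), 5 tested erythroid genes (2804–3714 against 2652–4928 CPM) and 1 tested neural crest and Schwann precursor gene (11.5–13.5 against 11.4–11.7 CPM). Hba-a1 of the erythroid list had 0 reads in every group, and Foxd3 of the neural crest list had 0 in wild type at E10.0. Their part in the levels of the cell cycle genes was not tested, and in whole buds more cells in division and more RNA per cell cannot be told apart.

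Other members with an unadjusted p under 0.05 at E10.0 did not pass the threshold, and of these only Kif11 came near the FDR limit of 0.1. Kif11, the motor that separates spindle poles, had a log2 fold change of 0.24 ± 0.06 (adjusted p = 0.111, exact test) and Top2a one of 0.23 ± 0.06 (adjusted p = 0.204, exact test). Among S phase genes Cdt1, E2f1 and E2f2 had negative values of -0.31 ± 0.18, -0.21 ± 0.06 and -0.20 ± 0.06, with adjusted p of 0.183, 0.204 and 0.248 by the exact test. Unadjusted p was under 0.05 for 5 genes in the higher direction, all of mitosis, and for 3 in the lower direction, all of S phase. These 8 are 18.6% of the members, beside 17.7% of all genes. By role, 15 of 21 S phase genes (71.4%) had a negative log2 fold change, with a median of -0.03, beside 54.2% of all genes. The 5 spindle and cytokinesis genes were all positive, between 0.01 and 0.24, and the 7 mitotic cyclins and kinases had a median of -0.04.

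Beside Mki67, several members often read as gauges of proliferation are given with all their values, none of them called between genotypes. Pcna was at 531, 538 and 529 CPM in the E10.0 controls, at 547, 533, 512 and 471 CPM in the E10.0 mutants, at 519.8, 531 and 515 CPM in the E10.5 controls and at 497, 493, 456 and 471 CPM in the E10.5 mutants. Its E10.5 mutants were all below their controls, and at E10.0 the groups overlapped. Top2a was at 869.8, 881 and 788 CPM in the E10.0 controls and at 979, 941, 977 and 1069 CPM in the E10.0 mutants, which did not overlap, and at 937, 822 and 1046 CPM against 1207, 923, 977 and 1010.0 CPM at E10.5, which did. Plk1, the kinase that matures centrosomes and spindle poles, was at 178, 178 and 198 CPM in the E10.0 controls and at 133, 138, 189 and 174 CPM in the E10.0 mutants. Mutant replicates 1 and 3 of Plk1 were low and replicates 4 and 5 lay among or near the controls. The log2 fold change at E10.0 was -0.22 (adjusted p = 0.377, exact test). At E10.5 Plk1 was at 175, 141 and 134 CPM in the controls and at 126, 132, 169 and 159 CPM in the mutants, which overlapped.

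At E10.5 the genotypes were compared at the stage of early outgrowth. None of the 43 genes was called, by the exact test, where 2.19% of all genes were higher and 1.54% lower in mutants; the quasi-likelihood test and DESeq2 also called 0. Unadjusted p was under 0.05 for 5 of the 43 (11.6%), beside 10.2% of all genes. The 43 log2 fold changes lay between -0.24 and 0.33, with a median of -0.02, beside -0.01 over all genes.

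The smallest p at E10.5 belonged to Cenpe, which was at 186, 147 and 199.998 CPM in the controls and at 251, 186, 221 and 236 CPM in the mutant buds. The groups overlapped, and the log2 fold change was 0.33 ± 0.16 (adjusted p = 0.211, exact test). Mki67 was at 466, 366 and 556 CPM in the controls and 671, 466, 559.6 and 633 CPM in the mutant buds. Its groups overlapped as well, and its log2 fold change was 0.33 ± 0.21 (adjusted p = 0.382, exact test). For Cenpe, Mki67 and Cenpf the lowest wild-type bud was replicate 2, the library in which long transcripts were also low. Without mutant replicate 2, 1 member was called, which was Cenpe. The share of all genes called in that fit is not given here. Among marker lists at E10.5, 4 of 8 limb bud mesenchyme genes were lower in mutants (1563–1613 against 1259–1332 CPM summed), as were 2 of 3 tested mesothelium and body wall genes (3.77–6.39 against 1.498–3.26 CPM) and the 1 tested neural crest gene (14.1–16.3 against 11.1–15.4 CPM); their part in these values was not tested.

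Rrm2, the small subunit of ribonucleotide reductase, came next and pointed the other way. It was at 549, 557 and 525 CPM in the controls and at 508, 512, 443 and 448 CPM in the mutant buds, so that the groups did not overlap. The log2 fold change was -0.19 ± 0.06 (adjusted p = 0.370, exact test). Among the S phase genes 19 of 21 had negative values at E10.5, with a median of -0.05, and all 5 of the DNA synthesis and nucleotide group were among them; over all genes 53.3% were negative. Mitosis genes had 15 positive values of 22 and a median of 0.03, beside 46.7% positive over all genes. None of these 21 and 22 was called.

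**Figure D3:**
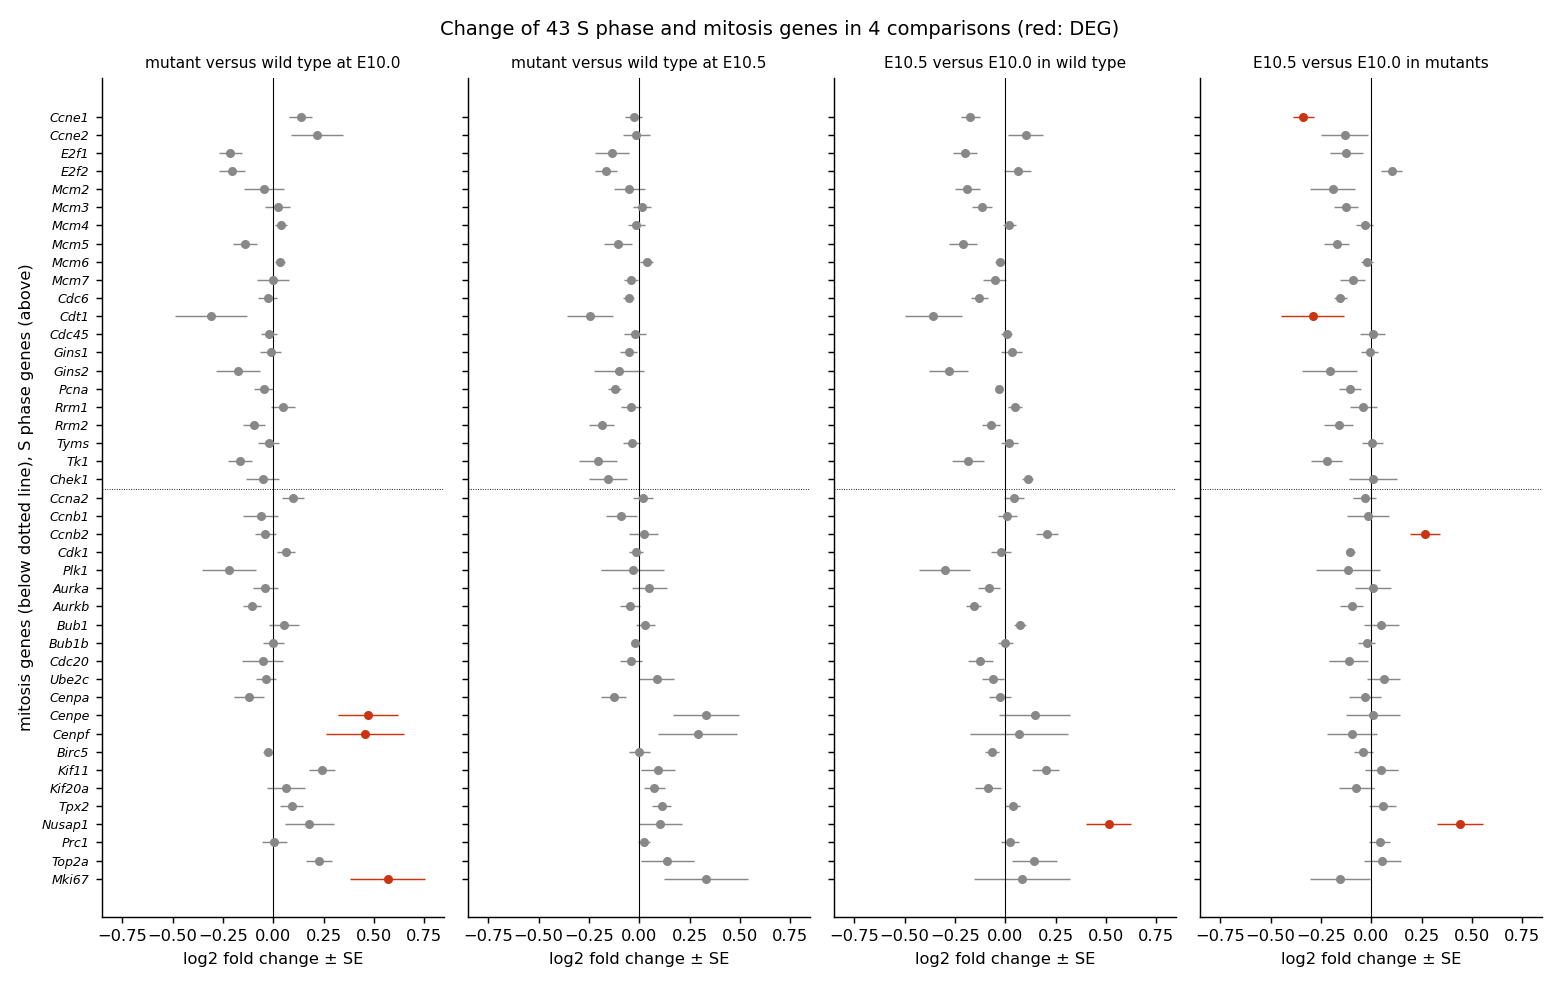
log2 fold change (x axis, ± SE) of each of the 43 genes (y axis) in the 4 comparisons, with S phase genes above the dotted line and mitosis genes below it. Red marks genes that passed the exact test and the 1.2-fold minimum. Calls number 3 between genotypes at E10.0, 0 at E10.5, 1 between stages in wild type and 4 between stages in mutants.

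Development from E10.0 to E10.5 changed 1 member in wild-type buds. Nusap1 (chr2:119444034-119476980, mm9) was at 105, 94.5 and 108 CPM at E10.0 and at 128, 151 and 160.1 CPM at E10.5. Every E10.5 bud was above every E10.0 bud. The means were 102 ± 7.18 and 146 ± 16.5 CPM (n = 3 each), a log2 fold change of 0.51 ± 0.11 with an adjusted p of 0.00062 by the exact test. No member was called lower. Over all genes 5.39% were called higher and 4.74% lower.

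The next smallest p in wild type was that of Cdt1, at 55.8, 65.9 and 71.6 CPM at E10.0 and 56.5, 49.8 and 44.6 CPM at E10.5. The groups overlapped, with a log2 fold change of -0.36 ± 0.14 (adjusted p = 0.113, exact test). Ccnb2, which encodes cyclin B2, was at 106, 98.6 and 108 CPM at E10.0 and at 115, 126 and 121 CPM at E10.5, a log2 fold change of 0.21 ± 0.06 (adjusted p = 0.162, exact test). Cyclin E1 (Ccne1) had -0.17 ± 0.05 (adjusted p = 0.224, exact test). The rank correlation of log2 fold change with GC content was -0.43 over all genes and -0.78 over the 43. With the GC and length offset, Nusap1 was called at 0.39 (adjusted p = 0.0179, quasi-likelihood test) and Gins2 was called lower at -0.27 (adjusted p = 0.0939). That fit called 11.9% of all genes with a known length.

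In the mutants 2 members were higher and 2 lower at E10.5, where 10.8% of all genes were called higher and 8.4% lower. Nusap1 was at 134, 98.5, 105 and 127 CPM at E10.0 and at 169.6, 145, 157 and 157 CPM at E10.5, with no overlap. Its means were 116 ± 17.0 and 157 ± 9.99 CPM (n = 4 each), a log2 fold change of 0.44 ± 0.12 (adjusted p = 0.000273, exact test). Ccnb2 (chr9:70255496-70269361, mm9) was at 102, 94.3, 106 and 104 CPM and then at 113, 113, 130.2 and 133 CPM. The groups did not overlap, and the log2 fold change was 0.27 ± 0.07 (adjusted p = 0.00734, exact test).

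Ccne1 (chr7:38883003-38892553, mm9) fell. It was at 191, 193, 183 and 171 CPM in mutants at E10.0 and at 147, 137, 148 and 152 CPM at E10.5, again without overlap. The log2 fold change was -0.34 ± 0.05 (adjusted p = 0.000133, exact test). Cdt1 (chr8:125091915-125097028, mm9), whose product is destroyed once S phase begins, was at 39.2, 49.5, 63.6 and 55.9 CPM and then at 37.9, 44.2, 45.7 and 42.2 CPM. These groups overlapped, and its call was the weakest, with a log2 fold change of -0.29 ± 0.16 (adjusted p = 0.0876, exact test). Tk1 had an adjusted p of 0.0521 by the exact test but, at a log2 fold change of -0.22 ± 0.08, did not reach the fold of 1.2.

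Nusap1 and Ccne1 were the members that kept their calls between stages in mutants under every setting tried, including each library left out in turn. With the replicate number as a block, which treats same-numbered mutants of the 2 stages as pairs, 3 members were called by the quasi-likelihood test (Ccnb2, Ccne1 and Nusap1). Cdt1 was not called by that test either with the block or without it (adjusted p = 0.132 in both fits). With the block and the GC and length offset together the 3 were Ccne1, Cdt1 and Nusap1, and Ccnb2 at 0.24 fell short of the fold of 1.2. The shares of all genes called in the block fits are not given here, so these counts are not read as results about the members. Within the libraries of lower Rn45s (replicates 1 to 3) Nusap1 rose by 0.44 and within replicates 4 and 5 by 0.44 on the log2 scale. The same values were -0.44 and -0.24 for Ccne1, 0.20 and 0.33 for Ccnb2, and -0.11 and -0.44 for Cdt1. The change in Cdt1 was thus mostly in replicates 4 and 5, and without mutant replicate 4 of E10.0 it was -0.18 (adjusted p = 0.351, exact test).

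Marker lists moved between stages too. Of 4 macrophage genes tested, 3 rose in wild type (2.66–5.26 to 9.11–10.1 CPM summed) and 3 in mutants (4.46–7.06 to 10.8–15.0 CPM). All 3 tested mesothelium and body wall genes fell in mutants (10.2–23.1 to 1.498–3.26 CPM), and 1 rose in wild type (2.40–4.20 to 3.77–6.39 CPM). Among 8 limb bud mesenchyme genes, 2 were lower in wild type, and 1 was higher and 2 lower in mutants. The 9 ectoderm and ridge genes had 1 lower in wild type, and 2 higher and 2 lower in mutants. Muscle precursors had 2 of 5 tested genes higher and 1 lower in each genotype. In the endothelial list 1 of 7 was lower in mutants and 0 changed in wild type. No erythroid or neural crest gene was called. The part of these lists in the stage changes of Nusap1, Ccnb2, Ccne1 and Cdt1 was not tested.

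Whether stage changes differed between genotypes was tested by an interaction term. None of the 43 genes was called, by edgeR's quasi-likelihood test with an FDR limit of 0.1, where 0.186% of all genes were. DESeq2 also called 0. None of the 43 had an unadjusted p under 0.05, beside 5.76% of all genes. The smallest was that of Ccne1, whose stage change was lower by 0.16 in mutants than in wild type on the log2 scale (unadjusted p = 0.0716, adjusted p = 0.923). Ccne2, which encodes cyclin E2, had the next, at -0.23 (adjusted p = 0.950), and was at 22.9 to 27.3 CPM in the E10.0 controls and 24.6 to 35.3 CPM in the E10.0 mutants. A difference of the Ccne1 change between genotypes was therefore not shown, although Ccne1 was called in mutants alone.

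Averaged over the genes, the level per embryo hardly moved. Per library, log2(CPM + 1) averaged across all 43 lay between 7.47 and 7.59 in all 14 libraries. Group means were 7.53 ± 0.01 (n = 3) in wild type and 7.55 ± 0.04 (n = 4) in mutants at E10.0. For E10.5 the means were 7.51 ± 0.02 (n = 3) and 7.50 ± 0.02 (n = 4). The classes are given apart, with no test of the difference between them. The 21 S phase genes averaged 7.26 ± 0.03, 7.21 ± 0.04, 7.19 ± 0.04 and 7.11 ± 0.03 in wild type and mutants at E10.0 and in wild type and mutants at E10.5. The 4 mutants at E10.5, at 7.07 to 7.14, were below all other libraries, but only just. Mutant replicate 2 (7.1394) nearly tied with wild-type replicate 3 of E10.5 (7.1427). The 22 mitosis genes averaged 7.79 ± 0.04 in controls and 7.87 ± 0.06 in mutants at E10.0. At E10.5 the averages were 7.82 ± 0.03 and 7.88 ± 0.07, and their groups overlapped in every comparison. These means are descriptions of chosen genes, and no test was made of them. With the GC and length offset, 39 of the 43 genes were lower at E10.5 than at E10.0 in mutants, against 29 without it; over all genes the shares were 56.5% and 51.6%. In wild type these counts were 35 and 22, and the shares over all genes 59.2% and 52.1%. By class, the offset left 19 of 21 S phase genes and 16 of 22 mitosis genes lower in wild type (13 and 9 without it), and 20 of 21 and 19 of 22 in mutants (17 and 12 without it). The median of the mitosis genes in wild type thereby turned from 0.02 to -0.05, the direction of the S phase genes.

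**Figure D4:**
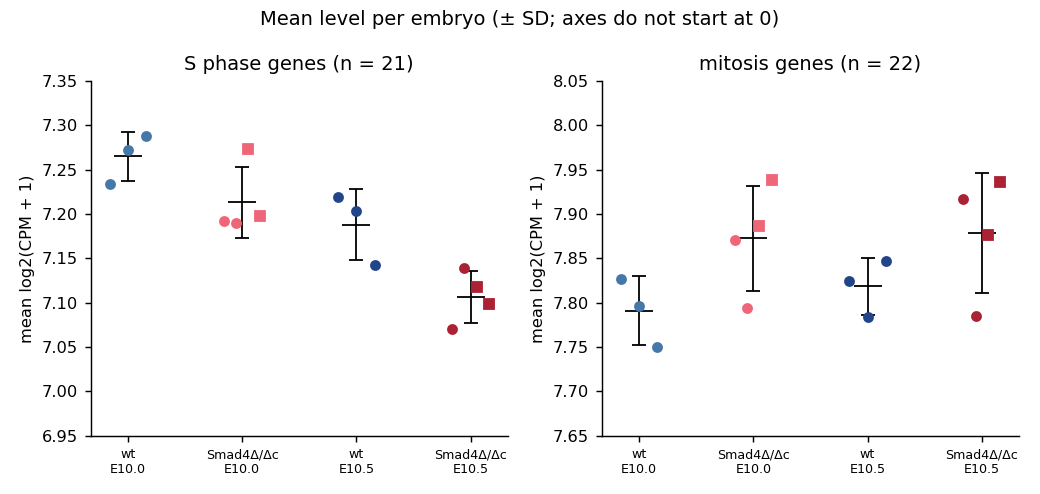
Mean log2(CPM + 1) per embryo (y axes, not from 0, with the same span) over the 21 S phase genes and the 22 mitosis genes. Points are embryos, bars are mean ± SD, and squares are mutant replicates 4 and 5. S phase genes are lowest in the mutants at E10.5 (7.07 to 7.1394), nearly tied with wild-type replicate 3 of E10.5 (7.1427), whereas the groups overlap for mitosis genes.

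Genes of the same processes outside the 43 had few calls. Of 51 other S phase genes, all tested, 1 was higher and 0 lower in mutants at E10.0, 0 changed at E10.5, and 1 was lower between stages in each genotype. The shares called were 1.96% at E10.0, 0% at E10.5 and 1.96% between stages in each genotype. Over all genes the shares were 6.61% at E10.0, 3.73% at E10.5, and between stages 10.1% in wild type and 19.2% in mutants. The gene lower between stages was Pold2, a subunit of DNA polymerase delta, at -0.32 ± 0.06 in wild type (adjusted p = 0.0849) and -0.30 ± 0.14 in mutants (adjusted p = 0.0290), both by the exact test. The gene higher at E10.0 was Brca2, which repairs stalled forks, at 0.41 ± 0.18 (adjusted p = 0.0614, exact test), and its longest coding transcript has 10724 bases.

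Of 68 tested genes among 69 other mitosis genes, 3 were higher and 1 lower in mutants at E10.0 (5.88%, beside 6.61% of all genes). Ncapd2, a condensin subunit, was at 263 ± 11.7 CPM in the controls and 429 ± 124 CPM in the mutant buds, and so rose by 0.71 ± 0.25 on the log2 scale (adjusted p = 0.00514, exact test), and Ckap5, a microtubule polymerase, by 0.40 ± 0.10 (adjusted p = 0.0171, exact test). Aspm, a spindle pole protein with a transcript of 9866 bases, had 0.38 ± 0.16 (adjusted p = 0.0586, exact test). The centromere protein gene Cenpm fell by 0.46 ± 0.14 on the log2 scale (adjusted p = 0.0549, exact test). At E10.5, Ncapd2 was the 1 gene higher, at 251 ± 16.9 CPM in the controls and 492 ± 88.2 CPM in the mutant buds, and its log2 fold change was 0.97 ± 0.14 (adjusted p = 1.47e-05, exact test). The share called at E10.5 was 1.47%, beside 3.73% of all genes. No other mitosis gene changed between stages in wild type, where 10.1% of all genes were called. Between stages in mutants 2.94% were called, beside 19.2% of all genes. In mutants Cdc25b, the phosphatase that activates CDK1, rose by 0.36 ± 0.07 (adjusted p = 0.000952, exact test), and Espl1, which encodes separase, fell by 0.29 ± 0.09 (adjusted p = 0.0298, exact test).

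Replication-dependent histone transcripts, a further mark of S phase, mostly lack a poly(A) tail and were barely captured. All 68 histone genes together took 0.00171% to 0.00271% of reads in every library but mutant replicate 5 of E10.5. That library, which had the most Rn45s (8.05%), was at 0.00559%. The filter was passed by 6 of the 68 genes. The 2 most abundant, Hist2h2be and Hist3h2a, averaged 5.59 and 3.86 CPM. Hist1h1c rose between stages in wild type by 0.69 ± 0.15 (adjusted p = 0.0695, exact test) and Hist2h2be in mutants by 0.94 ± 0.12 (adjusted p = 6.5e-06, exact test). None was called between genotypes.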

How the data were processed

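Polyadenylated RNA of 14 forelimb bud libraries was sequenced as single reads. The authors aligned reads to mm9 with TopHat 2.0.13 and deposited unstranded htseq-count read counts per gene symbol. Without strand, reads over exons of 2 genes were left uncounted. From these counts, genes on X, Y and M were removed, 12393 genes reaching 1 CPM in 3 or more libraries were kept, TMM factors were computed, and pairs of groups were compared with the exact test of edgeR 4.0.16 (R 4.3.3; tagwise dispersion over all 14 libraries, prior.df 10, Benjamini-Hochberg adjustment). The interaction used the quasi-likelihood test. CPM are scaled by TMM; SEs come from log2(CPM + 1). Alternatives included DESeq2 1.42.0, a replicate block, and GC and length offsets by splines of 4 degrees of freedom over GENCODE M1 transcripts, known for 96.1% of genes tested. The exact test, the quasi-likelihood fits without offsets and DESeq2 were run on simulated counts with known changes. The simulated libraries held no GC or length trend, no Rn45s difference and no correlation between libraries. The offset fits were not run on them. Same-numbered mutant libraries of the 2 stages had correlations of 0.27 to 0.61 between their deviations (3 pairs), though they came from different embryos. Differently numbered ones also correlated within replicates 1 to 3 (0.11 to 0.35) and within replicates 4 and 5 (0.29 and 0.38). A pairing by number and a shared library set therefore cannot be told apart. Libraries of a group always differed beyond counting noise, by a chi-square of at least 14.0 per degree of freedom.

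Members and lists were chosen with earlier results of these data known. Genes were named when called, when among the 2 smallest p-values of a comparison, as the highest and lowest mean CPM of each role, and, in other lists, as the 2 called genes of smallest p in each direction or the 2 most abundant histones; Pcna, E2f1, Top2a, Kif11, Plk1 and Tk1, and further members with near-threshold or extreme values, were singled out after their values were seen.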

Additional observations from a re-analysis of the deposited data

Results flagged for a closer look

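In 36 groups of 4 mutants checked for a library far from the others, 2 stood apart, where chance gives about 1 in 20 groups. Tk1 was at 61.0 CPM in mutant replicate 1 of E10.5, below the 71.1 to 72.8 CPM of the other 3 libraries. The mean log2(CPM + 1) of the 21 S phase genes was 7.27 in mutant replicate 4 of E10.0, above the 7.19 to 7.20 of the other 3.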

How the results depend on the processing

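Of the called members, Cdt1 between stages in mutants lost its call in 17 of 32 alternatives and Ccnb2 in 9 of 32. At E10.0, Cenpf lost its call in 11, Cenpe in 6 and Mki67 in 5 of 31. Other counts of members called at E10.0 were 7 with the replicate block (Ccne2, Cdt1, Cenpe, Cenpf, E2f1, Mki67 and Plk1), 6 without the libraries rich in Rn45s, 1 with a GC offset (Mki67), and 0 with a length offset, with both offsets, and with both offsets and without the libraries rich in Rn45s. They ranged from 0 (without wild-type replicate 3) to 5 (without mutant replicate 4) when single libraries were left out. At E10.5 the count was 1 with the replicate block (Cenpe) and 0 to 1 when single libraries were left out. Between stages in wild type it was 4 with the replicate block, 4 with only the groups compared in the fit and 4 without the libraries rich in Rn45s (in each case Cdt1, Gins2 and Plk1 beside Nusap1), 2 with both offsets, also with the block or without those libraries, and 1 to 3 over single libraries left out (3 without wild-type replicate 1 of E10.5; 2 without mutant replicate 1 or 4 or wild-type replicate 1 of E10.0). Between stages in mutants it was 2 without the libraries rich in Rn45s, with a GC offset and with both offsets, and 2 to 5 over single libraries left out (2 without replicate 3 of E10.0 or replicate 5 of E10.5). The interaction kept 0 members in every setting. The interaction value of Ube2c was 0.12 as fitted and turned to -0.011 with both offsets and without the libraries rich in Rn45s. The cause was not tested for any of these. Outside the mutant stage comparison same-numbered libraries had mean correlations of -0.16 to -0.01, so there the block shares only a number; in that comparison it changed no call of the quasi-likelihood test without a block (Ccnb2, Ccne1 and Nusap1 called, Cdt1 not). Of 765 alternative values for single genes, 696 kept their direction and side of the threshold. The mean over the 43 genes moved beyond 1 SD in 4 of 76 alternatives, 3 of them with total counts in place of TMM. Calls also needed the 1.2-fold minimum, which smaller changes such as that of Rrm2 at E10.5 (-0.19) do not reach at any depth. In the main test Rrm2 also missed the FDR limit there, so it was not the fold minimum alone that kept it from a call.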
